A study of Mus musculus with 19 samples.

Results

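The 5 genes described here, Il1r2, Prss34, Zc3h3, Gm7331 and Gm5830, were chosen by their measured values: of 50854 genes with counts from sorted mouse bone marrow monocytes, they are those at a group mean of at least 10 counts per 1000000 reads (CPM) in each of 3 inflamed groups and, in each, at least 6 times the higher of the 2 resting means. They are 0.00983% of all genes, and 6072 genes were at or over that floor in each inflamed group. The contrast of inflamed with resting libraries chose these genes, so their values in it are a description and carry no test. The 2 genes that the rule left out were not analysed here. The question was whether signs of cytokine action or signs of how the libraries were made and counted move with these genes, and values for both are given, with no verdict between them.

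RNA-seq was carried out in bulk on monocytes sorted from the bone marrow of female REP mice aged 8 to 12 weeks, in which the chemokine receptors CCR1 and CCR2 each have a fluorescent reporter. Resting CCR1/2+ve monocytes, which carry the reporters of CCR1 and CCR2, and resting CCR2+ve monocytes had 4 libraries each and are labelled as resting. Inflamed mice had 7 days of infusion from an implanted osmotic pump with 4 cytokines, IL-3, IL-6, GM-CSF and IFN-α, and gave 3 libraries of CCR1/2+ve monocytes (replicates 2 to 4) and 4 of CCR2+ve monocytes. The label inflamed CCR1 stands on 4 more libraries, and how those cells were gated was not given in the sources used here. No resting libraries carry that label, so the rule set these libraries against the resting CCR1/2+ve and CCR2+ve groups. For inflamed CCR1, inflammation and the kind of cell sorted therefore cannot be told apart. The labels do not say whether resting mice carried a pump, and they do not say that libraries of a group came from separate animals, so p-values measure the spread between these samples, which may be technical. The 19 libraries held between 22268658 and 30502009 counted reads.

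IL-3 and GM-CSF signal through receptors that share a β-chain and activate STAT5, IL-6 acts through gp130 and STAT3, and IFN-α acts through the type I interferon receptor to induce antiviral genes. IL-3 also drives the growth of basophils and mast cells in bone marrow. A processed pseudogene is a copy of a spliced mRNA that was inserted back into the genome, and a read from such a copy or from its parent gene can be placed only where their sequences differ.

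The libraries were compared with the cell type on their label. Csf1r, which encodes the receptor for M-CSF, was between 405 and 1001 CPM in the 8 resting libraries, between 854 and 1597 CPM in the inflamed CCR1/2+ve and CCR2+ve libraries and between 13.2 and 23.6 CPM in the inflamed CCR1 libraries. Ccr2 was between 3.88 and 9.39 CPM in the inflamed CCR1 libraries. Ccr1, the gene their label names, was lowest there of all 19 libraries, between 29.2 and 41.9 CPM, against between 71.3 and 143 CPM in resting and between 152 and 386 CPM in the other inflamed libraries. Ly6c2, a monocyte marker, was between 1294 and 1355 CPM there, within the range of the other inflamed libraries, 1231 to 2052 CPM. The summed level of 16 neutrophil markers was between 153960 and 178180 CPM there, against between 1997 and 4611 CPM in the other inflamed libraries and between 1675 and 11762 CPM in resting libraries, and its most abundant gene was Ngp, a granule protein. The inflamed CCR1 libraries therefore carried most neutrophil markers at high levels and most monocyte markers, though not Ly6c2, at low levels. These values go against the label of monocytes, and the low level of Ccr1 goes against the name of the group. The name of the label is kept here. Of the 18 monocyte markers, 16 were lower in inflamed CCR1 than in inflamed CCR2+ve libraries by edgeR's quasi-likelihood test, and of the 16 neutrophil markers 14 were higher and 1 lower, where 14.4% of all genes tested were called higher and 16.8% lower. Applied to the inflamed CCR1/2+ve and CCR2+ve groups alone, a choice made after seeing the data, the rule gave 19 genes, and these held all 5.

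Across the 6072 genes at the floor, the ratio of the lowest inflamed group mean to the higher resting mean had a median of 0.745. It was under 1 for 4314 genes, 1 to 2 for 1569, 2 to 3 for 142, 3 to 4 for 33 and 4 to 6 for 9. The 5 genes therefore form the far end of a distribution in which the lowest inflamed mean of most genes lay below the higher resting mean. Their ratios were 44.8 for Gm5830, 26.7 for Prss34, 13.2 for Gm7331, 6.82 for Il1r2 and 6.17 for Zc3h3. In each of the 5, the lowest of the 11 inflamed libraries lay above the highest of the 8 resting libraries, which was so for 5.66% of the 18652 genes tested. The rule fixed that pattern in large part and nothing is read from it.

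**Figure D1:**
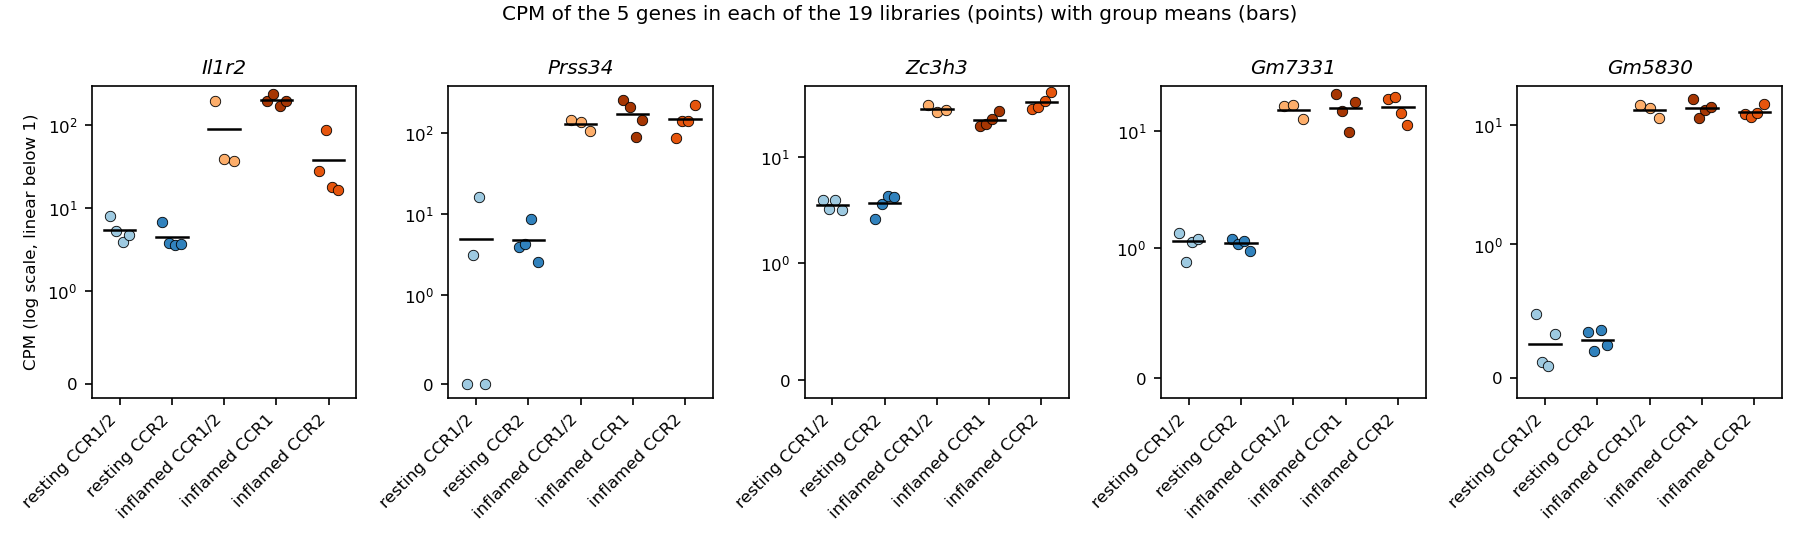
CPM of the 5 genes (y axis, log scale, linear below 1) in each of the 19 libraries (points) by group (x axis), with bars at group means. The gap between resting and inflamed libraries runs from 7.99 to 16.5 CPM in Il1r2 and from 0.477 to 11.4 CPM in Gm5830.

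Il1r2 (ENSMUSG00000026073, chr1:40074079-40125231, + strand, GRCm38, 9 exons) encodes the type II IL-1 receptor, a decoy that binds IL-1 without signalling. Its CPM was 7.99, 5.39, 3.94 and 4.75 in the resting CCR1/2+ve libraries and 6.79, 3.85, 3.64 and 3.71 in the resting CCR2+ve libraries. In the inflamed CCR1/2+ve libraries, replicates 2 to 4, it was 195, 38.9 and 37.2 CPM, and in the inflamed CCR2+ve libraries, replicates 1 to 4, 28.4, 87.4, 18.1 and 16.5 CPM. In the inflamed CCR1 libraries it was 197, 239, 170 and 197 CPM. The inflamed CCR1 libraries and replicate 2 of the inflamed CCR1/2+ve group were high, replicate 2 of the inflamed CCR2+ve group lay between, and all inflamed libraries lay above all resting libraries. The group means were 5.52 ± 1.75 (SD, n = 4), 4.50 ± 1.53 (n = 4), 90.5 ± 90.9 (n = 3), 37.6 ± 33.6 (n = 4) and 201 ± 28.4 CPM (n = 4), in the order resting CCR1/2+ve, resting CCR2+ve, inflamed CCR1/2+ve, inflamed CCR2+ve and inflamed CCR1. Without replicate 2 of the inflamed CCR2+ve group the ratio of Il1r2 was 3.81 in place of 6.82, under the threshold of 6, so its place among the 5 rests on that library.

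The rule did not use differences among the inflamed groups. Il1r2 was higher in inflamed CCR1 than in inflamed CCR2+ve libraries, by a log2 fold change of 2.45 ± 0.58 (SE; Benjamini-Hochberg adjusted p = 0.0111 by edgeR's quasi-likelihood test, range over the alternatives 3.19e-09 to 0.0386), and all 4 libraries of the former lay above all 4 of the latter. Against inflamed CCR1/2+ve libraries its log2 fold change in inflamed CCR1 was 1.14 ± 0.64 and did not pass the test (edgeR, adjusted p = 0.218). Without replicate 2 of the inflamed CCR1/2+ve group that value was 2.34 (edgeR, adjusted p = 6.29e-10), and over the alternatives the adjusted p ranged from 6.29e-10 to 0.412. The granule and neutrophil markers above separate the same groups, and their part in this result was not tested.

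Of the 5 genes, 2 had an entry in the table of RefSeq promoters (GRCm38.p6), Il1r2 and Prss34, and Zc3h3, Gm7331 and Gm5830 had none. The Il1r2 promoter, at chr1:40085843-40086142 (+ strand), lies within the span annotated for the gene and is shown because it holds the letters of the STAT motif TTCNNNGAA, in capitals at bases 140 to 148 of the 300 printed.
Il1r2 promoter: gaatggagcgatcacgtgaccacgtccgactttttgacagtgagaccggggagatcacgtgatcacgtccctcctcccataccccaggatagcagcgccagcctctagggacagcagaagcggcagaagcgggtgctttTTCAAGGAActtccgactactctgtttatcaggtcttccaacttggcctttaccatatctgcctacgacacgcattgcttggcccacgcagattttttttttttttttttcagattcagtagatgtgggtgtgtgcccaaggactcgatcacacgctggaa
Both strands were searched, and 8.30% of 32851 promoters of this length hold this motif. The interferon-stimulated response element (ISRE), which 3.44% of promoters hold, was searched for in the same way and is not in this window. These motifs can share letters where they overlap, and a match is a description of letters, not a site.

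Il1r2 lies in a chromosomal cluster of receptors for the IL-1 family, and the genes of this paragraph were chosen after their values were seen. Of 13 genes tested within 500 kb of Il1r2, 5 were called higher and 1 lower in inflamed than in resting CCR2+ve libraries by edgeR, and 5 and 1 in the CCR1/2+ve comparison, where 9.37% and 9.16% of all genes tested were called higher. Il18rap (chr1:40515362-40551705), a chain of the IL-18 receptor, was between 1.72 and 6.55 CPM in the resting libraries, 70.2, 30.9 and 25.9 CPM in inflamed CCR1/2+ve, 18.9, 40.0, 16.2 and 17.1 CPM in inflamed CCR2+ve, and between 134 and 154 CPM in inflamed CCR1. Replicate 2 was the highest of the inflamed CCR1/2+ve libraries and of the inflamed CCR2+ve libraries, as in Il1r2. In inflamed CCR1 replicate 2 was the highest in Il1r2, at 239 CPM, but replicate 4 in Il18rap. Il1rl2 (chr1:40324610-40367562), the receptor for IL-36, was between 7.56 and 18.95 CPM in resting and between 34.2 and 73.8 CPM in inflamed libraries, and replicate 2 was the highest library of all 3 inflamed groups. Il1r1 (chr1:40225080-40317257), the signalling receptor for IL-1 itself, was at most 1.83 CPM in all 19 libraries. Il18r1 (chr1:40465552-40500854) was between 3.97 and 8.02 CPM in inflamed CCR1 and at most 0.532 CPM elsewhere, so the cluster did not move as a block. Gm16894, an antisense gene within the span of Il1r2, was among the 5 called higher. Since the strand used in counting is not recorded, reads of a gene and of its antisense partner cannot be told apart where they overlap. Gm37347, on the same strand as Il1r2 and within its span, was also among the 5 in both comparisons. Whether reads on Gm16894 and Gm37347 came from Il1r2 RNA was not tested, so the count of 5 may include Il1r2 itself. No exon of Il1r2 overlaps an exon of another gene.

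**Figure D2:**
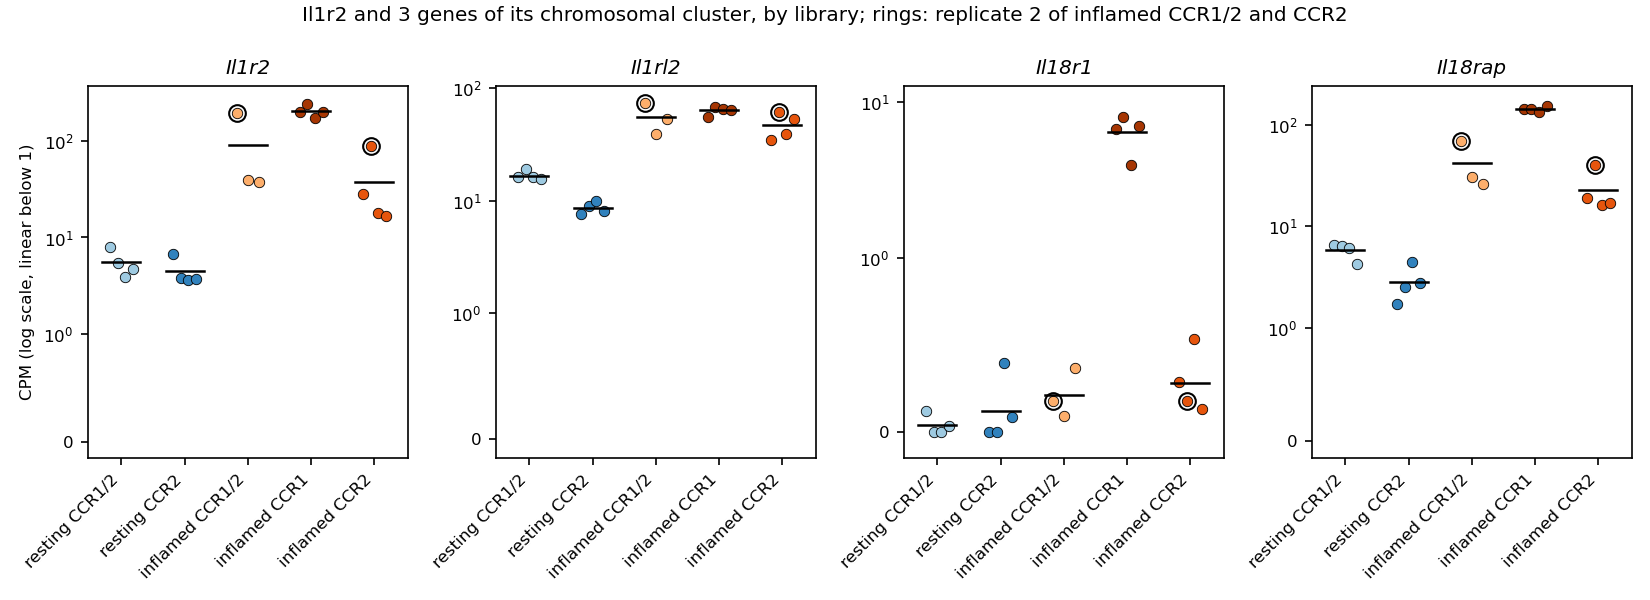
CPM (y axis, log scale, linear below 1) of Il1r2, Il1rl2, Il18r1 and Il18rap in each library by group, with bars at group means and rings on replicate 2 of the inflamed CCR1/2+ve and CCR2+ve groups. The rings mark the highest library of both groups in Il1r2 (195 and 87.4 CPM), Il1rl2 and Il18rap, and not in Il18r1.

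Prss34 (ENSMUSG00000056399, chr17:25298394-25300165, + strand, GRCm38, 5 exons) encodes a secreted serine protease of basophils and mast cells. It had 0, 79, 390 and 0 reads in the resting CCR1/2+ve libraries, or 0, 3.06, 16.4 and 0 CPM, and the libraries with 0 reads allow up to 0.119 and 0.0984 CPM, the level of 3 reads, by counting error alone. In the resting CCR2+ve libraries it was 3.87, 4.29, 8.55 and 2.53 CPM. Resting CCR1/2+ve replicate 3 was the highest resting library and resting levels spanned the whole range from no read to 390 reads. In inflamed CCR1/2+ve libraries, replicates 2 to 4, it was 146, 136 and 107 CPM, in inflamed CCR1 257, 210, 90.7 and 144 CPM, and in inflamed CCR2+ve 87.5, 141, 144 and 223 CPM. The 3 inflamed groups overlapped, at means of 130 ± 20.4 (SD, n = 3), 176 ± 73.1 (n = 4) and 149 ± 55.9 CPM (n = 4). The summed markers of monocytes and of neutrophils differed many-fold between inflamed CCR1 and the other inflamed groups. Its log2 fold change was 0.26 ± 0.37 (SE) in inflamed CCR1 against inflamed CCR2+ve libraries and −0.16 ± 0.26 in inflamed CCR1/2+ve against inflamed CCR2+ve libraries, neither past the threshold of edgeR's quasi-likelihood test, which does not show that the levels were alike.

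The Prss34 promoter (chr17:25298144-25298443, + strand) is shown for a GATA motif that was chosen after seeing the data. Its letters, AGATAA, stand in capitals at bases 220 to 225.
Prss34 promoter: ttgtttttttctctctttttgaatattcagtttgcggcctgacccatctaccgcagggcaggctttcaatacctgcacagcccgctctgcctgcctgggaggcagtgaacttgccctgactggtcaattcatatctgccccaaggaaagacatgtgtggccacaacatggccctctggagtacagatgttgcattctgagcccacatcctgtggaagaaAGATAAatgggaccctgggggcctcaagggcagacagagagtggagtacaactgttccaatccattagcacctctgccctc
Of 32851 promoters, 11.2% hold these letters on either strand, and the letters of the STAT motif and of the ISRE are not in this window.

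A marker list of basophils, mast cells and eosinophils has 13 genes, of which 11 were in the table, 10 were tested and Prss34 was the most abundant. Of the 10, 8 were higher and 1 lower in inflamed than in resting CCR2+ve libraries, and 6 higher and 1 lower in the CCR1/2+ve comparison. Over all genes tested, 9.37% were higher and 19.2% lower, and 9.16% and 19.4%. Prss34, chosen by this contrast, is 1 of the higher genes in both. The median log2 fold change of the list was 3.62 and 2.90, against −0.10 and −0.25 over all genes tested. Cd200r3, a surface receptor of basophils and mast cells, was between 0 and 0.358 CPM in resting and between 1.35 and 4.62 CPM in inflamed libraries. Fcer1a and Ms4a2, which encode chains of the high-affinity IgE receptor, and Cpa3, a mast cell carboxypeptidase, were among the higher genes. Fcer1a was between 0 and 0.594 CPM in resting libraries, between 3.27 and 5.20 CPM in inflamed CCR1/2+ve, between 1.90 and 8.01 CPM in inflamed CCR1 and between 2.72 and 4.36 CPM in inflamed CCR2+ve libraries. Cpa3 was between 0 and 3.10 CPM in resting and between 3.97 and 13.7 CPM in inflamed libraries, and its highest resting library was also that of Prss34, resting CCR1/2+ve replicate 3. The resting and inflamed libraries did not overlap for Cd200r3, Cpa3 or Fcer1a. Other lists of cell markers, named here after their values were seen, also held genes called between the states. Of 13 erythroid genes, 0 were higher and 10 lower in the CCR2+ve comparison, and 0 and 8 in the CCR1/2+ve comparison. For 13 dendritic cell genes these counts were 1 and 8, and 1 and 4. For 13 stem and progenitor genes they were 2 and 6, and 1 and 5.

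The list of basophil, mast cell and eosinophil markers apart from Prss34 summed to between 1.96 and 14.6 CPM in resting libraries. It summed to 20.8, 18.7 and 14.1 CPM in inflamed CCR1/2+ve, between 195 and 265 CPM in inflamed CCR1 and between 13.0 and 27.0 CPM in inflamed CCR2+ve libraries. The high sums in inflamed CCR1 came mostly from Kit, a receptor of stem and mast cells, at 126 to 166 CPM, from Prg2, an eosinophil and basophil granule protein, at 11.5 to 51.0 CPM, and from Siglecf at 23.6 to 26.0 CPM, genes named here after their values were seen. Kit was at most 0.444 CPM in the inflamed CCR1/2+ve and CCR2+ve libraries and was the gene called lower in both comparisons. Epx was at 0 reads in all resting and all inflamed CCR1/2+ve libraries. In bulk samples, more cells of a type and more RNA per cell cannot be told apart. The part of basophils or mast cells among the sorted cells in the level of Prss34 was not tested.

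**Figure D3:**
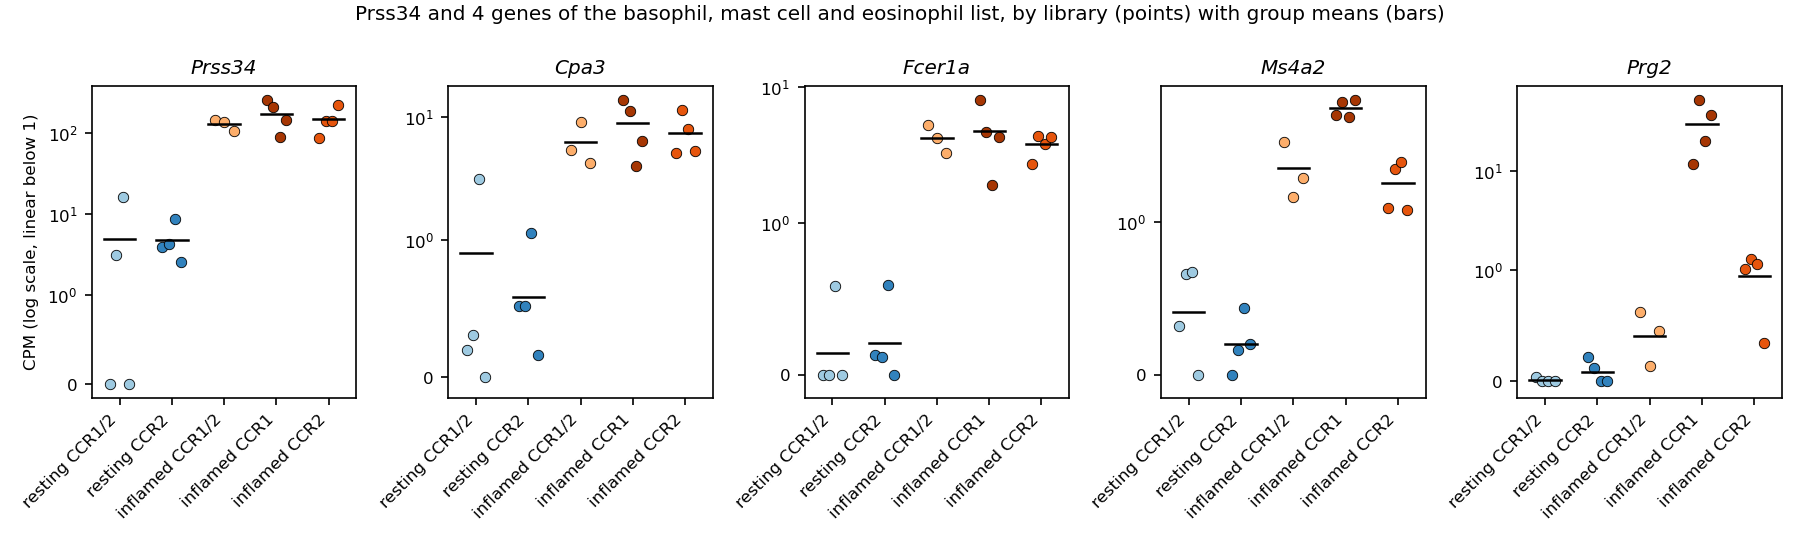
CPM (y axis, log scale, linear below 1) of Prss34 and of Cpa3, Fcer1a, Ms4a2 and Prg2 in each library by group, with bars at group means. The 3 inflamed groups overlap in Prss34, Cpa3 and Fcer1a, while Prg2 is between 11.5 and 51.0 CPM in inflamed CCR1 and at most 1.29 CPM in all others.

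Zc3h3 (ENSMUSG00000075600, chr15:75754430-75841915, − strand, GRCm38, 12 exons) encodes a zinc finger protein of mRNA polyadenylation and export. Its CPM was 3.93, 3.26, 3.90 and 3.15 in resting CCR1/2+ve and 2.58, 3.61, 4.31 and 4.24 in resting CCR2+ve libraries. In inflamed CCR1/2+ve libraries it was 31.3, 26.8 and 28.1 CPM, in inflamed CCR1 19.7, 20.7, 23.2 and 27.2 CPM, and in inflamed CCR2+ve 28.4, 29.6, 34.1 and 41.1 CPM. Of the 3 inflamed groups CCR1 had the lowest mean, 22.7 ± 3.33 CPM (SD, n = 4), and all 4 of its libraries lay below all 4 of inflamed CCR2+ve, at 33.3 ± 5.76 CPM (n = 4). That difference had a log2 fold change of −0.53 ± 0.15 (SE; edgeR's quasi-likelihood test, Benjamini-Hochberg adjusted p = 0.00868), under the fold cutoff of 1 on the log2 scale. Without resting CCR2+ve replicate 1 the ratio of Zc3h3 was 5.60 and without inflamed CCR1 replicate 4 it was 5.76, so its place among the 5 rests on each of these libraries.

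A processed pseudogene on another chromosome, Gm7353 (chr7:3109020-3111963, − strand), is a near-identical copy of Zc3h3. Over the 2850 bases of the coding sequence, 2847 were identical, and the 3 differences were A127G, C999G and A1236G, with the base of the coding gene given before that of the pseudogene and positions counted from 1 at the first base of the coding sequence. Only 19.5% of the stretches of 50 bases in the Zc3h3 transcript were found in no other gene. Gm7353 was between 0.644 and 1.56 CPM in resting and between 2.66 and 5.02 CPM in inflamed libraries. The Zc3h3 share of the reads of both genes was 69.8% to 85.3% in resting libraries (median 77.8%) and 87.0% to 90.8% in inflamed libraries (median 88.5%), so both genes stood higher in the inflamed libraries. Summed with its copy, Zc3h3 had a ratio of 5.37, under the threshold. The split of reads between the genes makes the level of Zc3h3 uncertain.

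Gm7331 (ENSMUSG00000059461, chrX:162566857-162567243, + strand, GRCm38, 1 exon of 387 bases) is a processed pseudogene and lies within the span of Reps2 on the other strand, outside its exons. Of all stretches of 50 bases in Gm7331, 14.5% were found in no other gene, and of all stretches of 100 bases 17.0%.

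Gm7331 was between 0.892 and 1.35 CPM in the 8 resting libraries (23 to 36 reads). It was 16.1, 16.4 and 12.6 CPM in inflamed CCR1/2+ve, 20.4, 14.8, 9.66 and 17.7 CPM in inflamed CCR1 and 18.6, 19.4, 14.1 and 11.2 CPM in inflamed CCR2+ve libraries. All 11 inflamed libraries lay above all 8 resting libraries, and the inflamed groups overlapped, at means of 15.04 ± 2.16 (SD, n = 3), 15.6 ± 4.60 (n = 4) and 15.8 ± 3.88 CPM (n = 4) in the order CCR1/2+ve, CCR1 and CCR2+ve.

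Near-identical copies of Gm7331, chosen after their values were seen, include Olfr77, Gm11808 and Gm7808. Olfr77, whose annotated transcript holds a near-identical stretch, was between 0.581 and 1.28 CPM in resting and at most 0.135 CPM in inflamed libraries, the reverse of Gm7331. Gm11808 was between 27.8 and 46.4 CPM in resting and between 14.8 and 31.2 CPM in inflamed libraries. Gm7808 had 0 reads in all 19 libraries. Reads may be shared between such copies, so the level of Gm7331 is reported as uncertain, and whether it came from transcription or from how reads were placed was not tested.

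Gm5830 (ENSMUSG00000072978, chr1:78967637-78968079, − strand, GRCm38, 1 exon of 443 bases) is a processed pseudogene of Ube2v1, which encodes a ubiquitin-conjugating enzyme variant (chr2:167607638-167632095, − strand), and lies within the span of the lincRNA Gm29536 on the same strand. The aligned sequences had 5 mismatches and 1 gap over the 441 coding bases of Ube2v1, with substitutions G88A, C252T, A266G, G300A and C305T, counted and ordered as for Zc3h3. The stretch that holds 4 of the 5 is shown, with those bases in capitals.
Ube2v1, bases 236 to 335: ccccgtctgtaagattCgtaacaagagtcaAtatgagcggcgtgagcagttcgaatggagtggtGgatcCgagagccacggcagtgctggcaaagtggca
Gm5830, chr1:78967746-78967845: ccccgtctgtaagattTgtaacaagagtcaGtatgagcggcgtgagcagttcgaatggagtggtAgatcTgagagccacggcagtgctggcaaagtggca
In Gm5830, 41.9% of the stretches of 50 bases and 73.5% of those of 100 bases were found in no other gene, more than in Gm7331.

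Gm5830 had 2 to 12 reads in each resting library, or 0.0839 to 0.477 CPM, and 258 to 373 reads in each inflamed library. It was 14.5, 13.7 and 11.4 CPM in inflamed CCR1/2+ve, 16.2, 11.4, 13.1 and 14.0 CPM in inflamed CCR1 and 12.3, 11.5, 12.5 and 14.9 CPM in inflamed CCR2+ve libraries. The inflamed libraries lay within a narrow range in all 3 groups. Its parent Ube2v1 was low throughout, at 0.557 to 1.07 CPM in resting and 0.674 to 1.51 CPM in inflamed libraries. Gm5830 held 11.1% to 37.0% of the reads of the pair in resting libraries and 88.4% to 95.3% in inflamed libraries, and the summed level was 0.755 to 1.42 CPM and 12.3 to 17.2 CPM, so the sums did not overlap either. Summed with Ube2v1 its ratio was 11.7. Gm20431, a coding gene that overlaps Ube2v1 on the same strand, had 0 reads in all 19 libraries. STAR counts a read that falls on 2 genes for neither, so the level of Ube2v1, these shares and the summed ratio may reflect counting and not expression, which was not tested. The other copy with reads, Gm8325, was between 1.01 and 2.04 CPM in all 19 libraries. No copy of Gm5830 was low in the inflamed libraries and high in the resting libraries. Its near-identical copies still make its level uncertain.

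**Figure D4:**
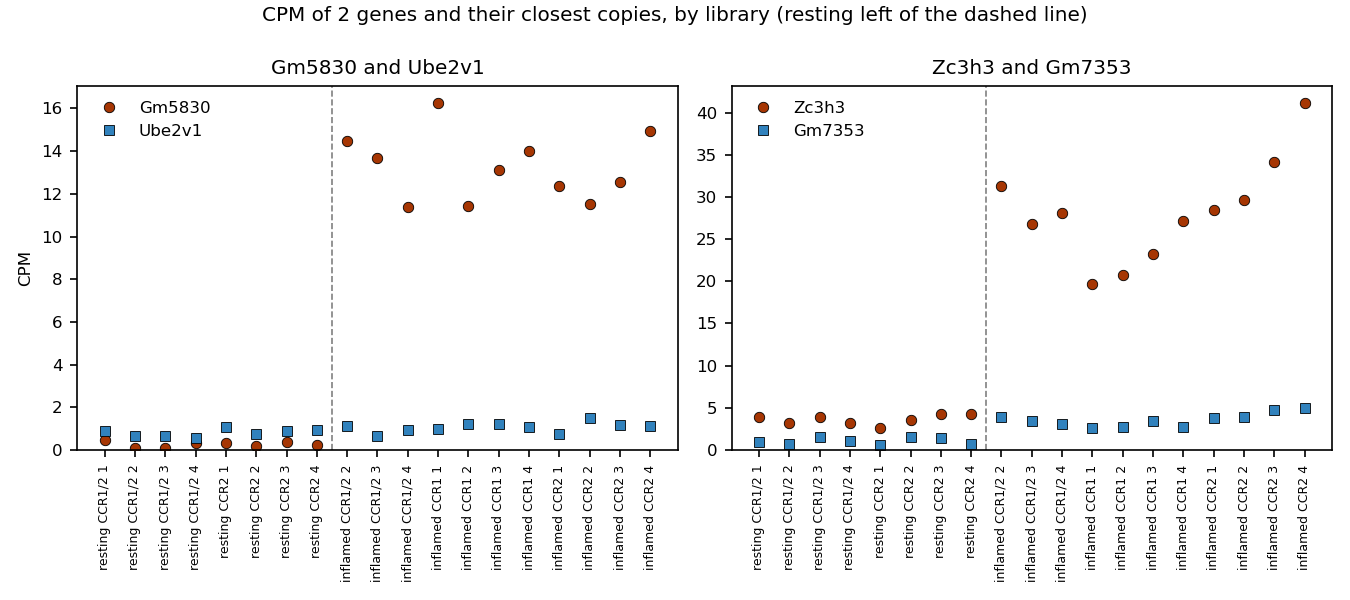
CPM (y axis) of Gm5830 and Ube2v1, and Zc3h3 and Gm7353 in each of the 19 libraries (x axis, resting left of the dashed line). Ube2v1 stays at most 1.51 CPM, and Gm7353 is higher in inflamed libraries as Zc3h3 is.

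The 5 genes were set beside the genes they were drawn from in features that the rule did not use. Near-identical copies, of at least 98% identity over at least 200 bases, were found for 3 of the 5, for 8.42% of the 6072 genes at the floor and for 9.68% of the 18618 annotated genes tested. Processed pseudogenes were 2 of the 5, 1.22% of the genes at the floor and 12.6% of the genes tested. The median exonic length was 1220 bases, against 4678 and 3075 bases, and the median GC content was 54.5%, against 48.8% and 48.9%. No exon of the 5 overlapped an exon of another gene, on either strand. With 5 genes these shares are descriptions. Il1r2 and Prss34 had no near-identical copy, and all of their stretches of 50 bases were their own.

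Processed pseudogenes as a class were described in the same comparisons. Of 2351 tested, 150 were called higher and 684 lower in inflamed than in resting CCR2+ve libraries, with a median log2 fold change of −0.94, and 117 and 584 in the CCR1/2+ve comparison, with a median of −0.95. Of all genes tested, 9.37% were higher and 19.2% lower, and 9.16% and 19.4%. Of 12531 protein coding genes, 1363 were higher and 2487 lower in the CCR2+ve comparison, with a median of 0.00, and 1471 and 2483 in the CCR1/2+ve comparison, with a median of −0.05. Lower calls thus outnumbered higher calls in both classes, and Gm7331 and Gm5830 stood on the smaller side. The share of all reads on processed pseudogenes was nearly the same in all libraries, 0.530% to 0.683% in resting and 0.509% to 0.669% in inflamed. A coding parent of at least 98% identity was found for 602 of the 2351. In the CCR2+ve comparison 84 of these were higher and 145 lower, and opposite courses, with the pseudogene higher and the parent lower, were seen in 6 pairs. The reverse, pseudogene lower and parent higher, was seen in 5 pairs, and in 63 the pseudogene was higher and the parent had no call.

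Examples at both ends were chosen after their values were seen. Gm10709, a copy of Rpl29, had a mean of 0.274 CPM in resting and 5.19 CPM in inflamed libraries, and Rpl29 had means of 115 and 125 CPM. Gm4609, a copy of Gapdh, had means of 0.597 and 6.69 CPM, and Gapdh itself had means of 410 and 1044 CPM. In the other direction, Rpl21-ps10 went from a mean of 1.61 CPM in resting to 0 reads in all inflamed libraries, and Gm6286, a copy of Rpl7a, from 3.26 to 0.0200 CPM. Their parents had means of 278 and 226 CPM for Rpl21 and 277 and 221 CPM for Rpl7a. Single pseudogenes thus stood far apart between the states in both directions, beside parents with no call for Gm10709, Rpl21-ps10 and Gm6286 and beside a parent called higher for Gm4609.

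**Figure D5:**
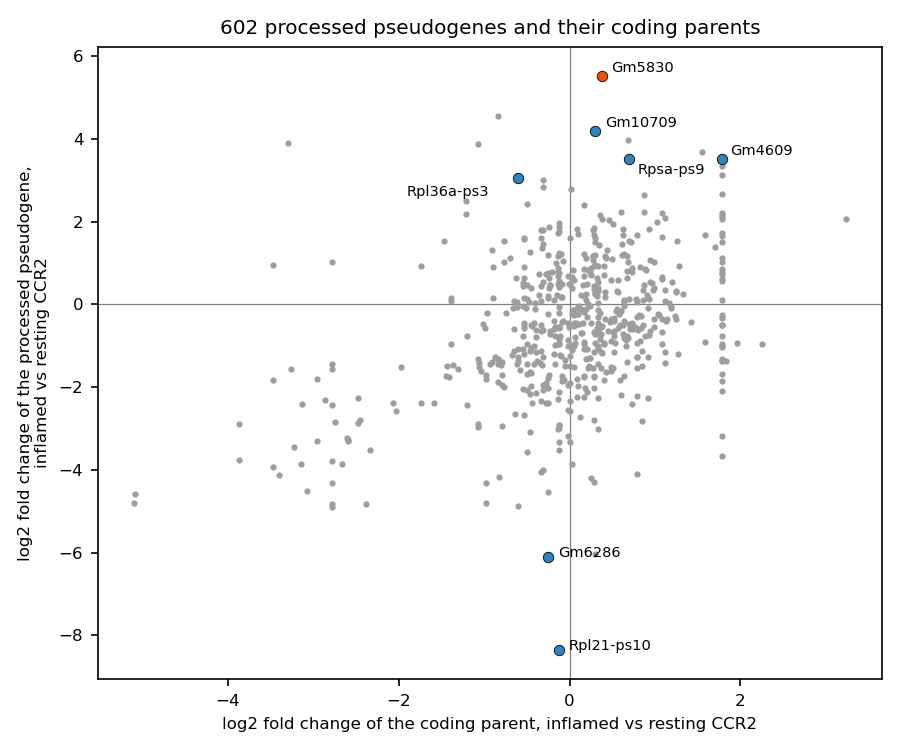
Log2 fold change between inflamed and resting CCR2+ve libraries of 602 processed pseudogenes (y axis) and of their coding parents (x axis), each pair a point, with Gm5830 in orange and 6 further pseudogenes in blue. Gm5830 at 5.53 is the highest point, and Rpl21-ps10 and Gm6286 stand low beside parents near 0.

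The genes nearest the threshold of the ratio on the inside were Zc3h3, Il1r2 and Gm7331, at 6.17, 6.82 and 13.2. Those nearest on the outside were Gm26880, Hyou1 and Gm6394, at 5.81, 5.62 and 5.37. Hyou1, a chaperone of the endoplasmic reticulum, was between 5.31 and 9.73 CPM in resting and between 30.3 and 68.6 CPM in inflamed libraries. Gm26880, a lincRNA, was between 2.22 and 6.10 CPM and between 20.2 and 69.8 CPM. Gm6394, a processed pseudogene, was between 1.79 and 2.80 CPM in resting and between 10.3 and 22.6 CPM in inflamed libraries. The resting and inflamed libraries of these genes did not overlap, as in the 5 genes inside the threshold. Below the floor, 8 further genes had a lowest inflamed mean of at least 4 CPM and a ratio of at least 6, of which 5 were processed pseudogenes and 3 coding genes, Cish and Cpa3 among them, named here after their values were seen.

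The populations were then compared within each state, which the rule did not use. Between resting CCR1/2+ve and resting CCR2+ve libraries edgeR's quasi-likelihood test called 0 of the 5 genes, beside 4.25% of all genes tested (2.34% higher and 1.9% lower), with 0 at an unadjusted p under 0.05 and 0 by DESeq2. The log2 fold changes were −0.24 ± 0.64 (SE) for Gm5830, −0.02 ± 1.38 for Prss34, −0.01 ± 0.30 for Gm7331, 0.23 ± 0.26 for Il1r2 and −0.12 ± 0.23 for Zc3h3. The standard error of Prss34 leaves wide room for a difference. The value of Prss34 lay between −2.39 and 0.43 when each library was left out in turn. Between inflamed CCR1/2+ve and inflamed CCR2+ve libraries the test called 0 of 5, beside 0.145% of all genes (0.102% higher and 0.0429% lower), with 0 at an unadjusted p under 0.05 and 0 by DESeq2, and the log2 fold changes ran from −0.18 for Zc3h3 to 1.28 for Il1r2. Leaving out each library in turn, that of Il1r2 was between 0.06 (without inflamed CCR1/2+ve replicate 2) and 2.11 (without inflamed CCR2+ve replicate 2), so it turned on single libraries. Between inflamed CCR1 and inflamed CCR2+ve libraries it called 1 of 5, Il1r2, which was higher, beside 31.3% of all genes (14.4% higher and 16.8% lower). Between inflamed CCR1 and inflamed CCR1/2+ve libraries edgeR called 0 of 5, beside 27.7% of all genes (13.2% higher and 14.6% lower), with 1 at an unadjusted p under 0.05 (Zc3h3) and 0 by DESeq2. The interaction of population with inflammation was called for 0 of 5 by edgeR, beside 0.214% of all genes (0.0911% higher and 0.123% lower), with 0 at an unadjusted p under 0.05 and 0 by DESeq2.

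Gm7331 and Gm5830 had log2 fold changes of 0.00 ± 0.22 and 0.12 ± 0.16 (SE) between inflamed CCR1 and inflamed CCR2+ve libraries, and 0.02 ± 0.23 and 0.02 ± 0.17 between inflamed CCR1 and inflamed CCR1/2+ve libraries. Their levels were thus close in cells whose monocyte and granule genes were far apart. A p over the threshold does not show that levels were alike.

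Lists of cytokine response genes were counted in the inflamed against the resting groups, beside 9.37% of all genes called higher and 19.2% lower in the CCR2+ve and 9.16% and 19.4% in the CCR1/2+ve comparison. Of 18 genes of the IL-3, GM-CSF and STAT5 response tested, 8 were higher and 5 lower in CCR2+ve, and 7 and 4 in CCR1/2+ve monocytes. Cish, a feedback inhibitor that STAT5 induces, was between 0.164 and 0.698 CPM in resting libraries, 14.5, 10.0 and 11.8 CPM in inflamed CCR1/2+ve, between 3.83 and 6.61 CPM in inflamed CCR1 and between 10.9 and 21.4 CPM in inflamed CCR2+ve libraries. It was the gene of these lists closest to the rule, with a ratio of 10.5 and a lowest inflamed mean of 5.39 CPM, under the floor. Csf2rb and Csf2rb2, the β-chains of the receptors for GM-CSF and IL-3, had log2 fold changes of 1.41 ± 0.10 and 2.47 ± 0.13 (SE) in CCR2+ve monocytes and 1.85 ± 0.09 and 2.77 ± 0.17 in CCR1/2+ve monocytes. In inflamed CCR1 libraries, however, Csf2rb was between 170 and 224 CPM and Csf2rb2 between 14.2 and 22.7 CPM, within or near their resting ranges of 179 to 210 CPM and 12.4 to 24.4 CPM. Csf2ra, the α-chain for GM-CSF and the most abundant gene of the list, was between 634 and 791 CPM in resting and between 26.1 and 66.9 CPM in inflamed libraries.

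Of 29 antiviral response genes, 8 were higher and 2 lower in CCR2+ve and 20 higher and 1 lower in CCR1/2+ve monocytes, with Oas3, Oas1a and Eif2ak2 among the higher genes and Oasl2 the most abundant. Their summed level was between 1623 and 4820 CPM in resting libraries, between 4236 and 6797 CPM in inflamed CCR1/2+ve and CCR2+ve libraries and between 876 and 1103 CPM in inflamed CCR1 libraries. The inflamed CCR1 libraries have no resting group of the same label, so their low sum cannot be read as a change with inflammation. The part of interferon in the 5 genes was not tested. Of 19 genes of the IL-6 and STAT3 response, 5 were higher and 9 lower in CCR2+ve and 5 and 5 in CCR1/2+ve monocytes, with Pim1, Lrg1 and the most abundant gene, Hp, higher and Cebpd, Cebpb and Il6ra lower. Of 29 IFN-γ response genes, 5 were higher and 6 lower in CCR2+ve and 12 and 4 in CCR1/2+ve monocytes, and B2m was the most abundant. Of 19 inflammatory response genes, 3 were higher and 4 lower, and 4 and 5.

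Lists that speak to RNA handling were counted the same way. Of 17 immediate early genes, 2 were higher and 9 lower in CCR2+ve and 2 and 7 in CCR1/2+ve monocytes. Jun had log2 fold changes of −3.25 ± 0.19 and −4.00 ± 0.23 (SE) and Ier2 of −5.00 ± 0.13 and −4.90 ± 0.33. Ier3, among the higher genes, had log2 fold changes of 3.02 ± 0.27 and 2.61 ± 0.24. Of 11 heat shock genes, 2 were lower in each comparison, Dnajb1 and Hspa1a, and of 11 mitochondrial genes tested 6 were lower in CCR1/2+ve monocytes and none was called in CCR2+ve monocytes. Of 4 RNAs kept in the nucleus 1, Neat1, was higher in CCR2+ve monocytes, and of 19 housekeeping genes 6 were higher in each comparison, Actb, Gapdh and Pgk1 among them, and 1, B2m, was lower in CCR2+ve monocytes. The libraries of the resting and inflamed states therefore differed in genes that respond within minutes to stimulation, and the part of cell handling in the 5 genes was not tested.

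Measures of the libraries moved with the state as well. The 100 most abundant genes held 24.5% to 27.3% of reads in resting, 28.6% to 30.2% in inflamed CCR1/2+ve and CCR2+ve and 36.2% to 39.8% in inflamed CCR1 libraries. Between 18225 and 20020 genes had a read in the resting libraries and between 17011 and 18136 in the inflamed libraries, and ribosomal protein genes held 2.22% to 2.67% and 1.46% to 2.22% of reads. Resting libraries had 23274596 to 30502009 reads (median 25068000) and inflamed libraries 22268658 to 24444993 (median 22963000). These ranges overlapped, and the part of depth was not tested. The labels name no preparation or sequencing batch, and any batch that parted resting from inflamed libraries cannot be told apart from the cytokine infusion.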

How the data were processed

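The authors trimmed and assessed reads with fastp, aligned them to GRCm38 with STAR 2.7.10a, keeping reads placed at 1 locus with at least 35 matched bases, and deposited raw read counts per gene; the strand counted is not recorded. CPM was count over column total. The table has 1 further column of per-sample values that matches no sample and was not used. Chromosome 14 and part of the genes of chromosomes 15 to 19 were not analysed here. The 18652 genes that averaged 1 read or more across libraries were fitted with edgeR 4.0.16 in R 4.3.3 (TMM, robust quasi-likelihood F test, Benjamini-Hochberg adjustment) on the libraries of the groups compared, the SE was taken from the F statistic, and calls needed an adjusted p under 0.05 and a log2 fold change of 1 or more in size; DESeq2 1.42.0 was an alternative. The fits were tested on simulated data. Copies were searched with BLAST 2.17.0 in transcripts of GENCODE M21. Replicate numbers paired the samples by correlation of deviations between the resting groups (0.314 to 0.608 over 4 pairs) and between inflamed CCR1 and CCR2+ve (0.151 to 0.274 over 4 pairs), not elsewhere. Scaling by DESeq2's size factors moved the median log2 fold change of all genes by under 0.1. Members and lists were chosen with earlier results of these data known. Named genes were all members and the 3 nearest the threshold of the ratio on each side. From the lists, genes were drawn from the most abundant gene and up to 3 called in each direction with the smallest p. Not all of these are named. Copies, parents, neighbours and other list genes were chosen after their values were seen.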

Additional observations from a re-analysis of the deposited data

Results flagged for a closer look

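In groups of 4 libraries, the highest and lowest values of the 5 genes and of the library measures were compared with the spread of the other libraries, 56 groups in all, and chance alone singles out about 1 in 20 groups. A pair of values stood apart, both of Il1r2. In the resting CCR2+ve group replicate 1 was at 6.79 CPM, and the other libraries were between 3.64 and 3.85 CPM. In the inflamed CCR2+ve group replicate 2 was at 87.4 CPM, and the other libraries were between 16.5 and 28.4 CPM. The inflamed CCR1/2+ve group, with 3 libraries, was too small for this comparison, and its replicate 2 was also its highest library in Il1r2. No cause was tested. No interaction of population with inflammation was called for any of the 5 genes by edgeR's quasi-likelihood test.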

How the results depend on the processing

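The rule gave 5 genes. TMM-scaled CPM, DESeq2 size factors and removal of a GC trend gave 8 each, the added genes being Gm26880, Hyou1 and Gm6394. A floor of 5 CPM gave 10 and a floor of 20 CPM 3, without Gm5830 and Gm7331. A ratio of 4 gave 14 and a ratio of 8 gave 3, without Il1r2 and Zc3h3. Asking every inflamed library for at least 10 CPM and 6 times the highest resting library gave 1, Gm5830 (Gm7331 met the ratio, at 7.15, and not the floor, at 9.66 CPM). Leaving out each library in turn gave 4 to 7. Of the alternatives added after seeing the data, reads of Gm5830 and Zc3h3 summed with those of Ube2v1 and Gm7353 gave 4, without Zc3h3, the inflamed CCR1/2+ve and CCR2+ve groups alone gave 19, and leaving out replicate 2 of both groups gave 4, without Il1r2.

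In the tests within a state and of the interaction, 371 of 374 values of single genes kept their call under the alternatives, 0 calls ended and 3 were gained. With replicate numbers as a block, 1 of 5 genes was called between inflamed CCR1/2+ve and CCR2+ve libraries, Il1r2 (log2 fold change 1.18, edgeR adjusted p = 0.003, range over alternatives 0.003 to 1), although the numbers did not pair those samples by the rule above (correlation −0.318 to 0.5; 2 of 3 samples correlated best with their own number). The block changed no other call. With no fold cutoff, 2 were called between inflamed CCR1 and CCR2+ve libraries, Il1r2 and Zc3h3. Leaving out each library in turn, 0 to 1 were called between inflamed CCR1 and CCR1/2+ve libraries. The cause was not tested. edgeR's filterByExpr left no value for Gm5830 between the resting groups. Over all genes, the calls between inflamed CCR1/2+ve and CCR2+ve libraries numbered 27 (DESeq2 107, block 80), and those of the interaction 40 (152, 77). With 2 to 12 reads of Gm5830 in each resting library, its ratio is limited by depth.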
